A study of Homo sapiens with 27 samples.

Results

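Parental cells of the human colorectal cancer line Caco2 were compared with parental cells of LIM1215 and SW48, and the genes described are those that differed from both lines in the same direction. The comparison rests on 9 of the 27 arrays of the series, 3 per line. Of 17687 genes tested, 2616 were higher in Caco2 than in both other lines and 2810 were lower than in both.

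Caco2, LIM1215 and SW48 are established colorectal cancer lines, and parental here means not challenged. Biotin-labelled cDNA from 250 ng total RNA of each sample was hybridised to an Affymetrix whole-transcript array. The labels describe the parental lines as grown from 1 clone. They also give each line its own medium: Caco2 grew in Eagle's MEM with 20% fetal bovine serum, LIM1215 in RPMI 1640 with 10% serum, 1 ug per ml hydrocortisone and 1 ug per ml insulin, and SW48 in RPMI 1640 with 10% serum. The difference between lines and the difference between media cannot be told apart. The series also holds 9 arrays of resistant cells, which survived 20 cycles of challenge with natural killer (NK) cells carrying the Fc receptor CD16 and 1 ug per ml of the EGFR antibody cetuximab, and 9 of withdrawal cells, grown for 20 further cycles without challenge. Those states, with 3 arrays per line each, were used only to see whether the parental differences recurred. The labels do not say that replicates came from separate cultures, so p-values measure only the spread between these samples, which may be technical.

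Caco2 is widely used as a model of absorptive small-intestinal epithelium, because confluent cultures polarise, build a brush border of microvilli and secrete lipoproteins. The liver and the intestinal lining both arise from the endoderm, and they share transcription factors of the HNF and FOXA families that drive secreted plasma proteins, apolipoproteins and detoxifying enzymes. Colorectal cancers differ in these lineage programmes, in growth factor signalling through EGFR and the MAPK cascade, in p53 activity and in the HLA class I molecules that show peptides to T cells and restrain NK cells.

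Values are log2 intensities after the 9 arrays were quantile-normalized together. This step was needed because the median of the deposited values was about 7.02 on the Caco2 arrays, between 7.93 and 8.03 on the LIM1215 arrays and between 6.48 and 6.54 on the SW48 arrays. Between 44.7% and 47.7% of genes lay above background on the Caco2 arrays, 51.7% to 53.5% on the LIM1215 arrays and 48.1% to 49.9% on the SW48 arrays, where the limit on each array is the value that 95% of its negative control probes stay under. A group mean under that limit is called near background. Where 1 of 2 groups is near background the fold is a lower bound, written "at least", and where both are, no fold or log2 difference of a single gene is given. List medians include such genes. Pearson's r across genes, which are not independent, was 0.996 between Caco2 replicates and 0.995 between SW48 replicates.

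LIM1215 replicate 3 stood apart from its 2 partners, with r of 0.987 against 0.997 between replicates 1 and 2. Its interferon-induced genes were far higher: OAS2, an antiviral oligoadenylate synthetase, had 6.59, 6.27 and 13.58 on the LIM1215 arrays. OAS2 was named after its values were seen. List counts that moved by over 1.5 times without this array are given both ways.

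Epithelial markers bore out the label of an epithelial line in Caco2 and LIM1215, where 7 of 7 were above background, with summed log2 values of 104.9 to 105.1 on the Caco2 arrays and 106.8 to 107.9 on the LIM1215 arrays. In SW48 6 of 7 were above background and the sum was 88.2 to 88.5. The exception was VIL1, which encodes the microvillus protein villin and had 13.10, 13.10 and 13.19 in Caco2, 13.17, 13.10 and 12.66 in LIM1215 and 2.87, 3.32 and 2.86 in SW48. Of 11 NK cell and lymphocyte markers, 0 were above background in Caco2 and in LIM1215. PTPRC, the leukocyte antigen CD45, was above background in SW48 at 8.38, 8.49 and 8.11, with 2.34, 2.45 and 2.63 in Caco2. Of 5 myeloid markers, CD14, CSF1R and LYZ were above background in Caco2, LYZ in LIM1215 and 0 in SW48.

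Against LIM1215, 10180 genes differed at an adjusted p under 0.05 (57.6%), 4824 higher in Caco2 (27.3%) and 5356 lower (30.3%). Against SW48, 10078 genes differed (57.0%), 4504 higher (25.5%) and 5574 lower (31.5%). Both comparisons share the 3 Caco2 arrays. In RNA from bulk cultures, fewer expressing cells and less RNA per cell cannot be told apart. Of 6989 genes called in both, 5426 had the same direction, and in 1563 Caco2 lay between the other lines. The 2616 genes higher than in both are 14.8% of those tested and the 2810 lower ones 15.9%. At least a 2-fold difference from both lines was seen for 1626 higher genes (9.19%) and 1524 lower genes (8.62%).

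The 3 Caco2 arrays lay above all 6 others for 2972 genes (16.8%) and below them for 3341 (18.9%). Among the 2616 higher genes, 387 were above background in Caco2 and near background in both other lines, 1133 were above background in all 3, and 809 were near background in all 3. Among the 2810 lower genes, 661 were near background in Caco2 and above it in both others, 1284 were above background in all 3, and 563 were near background in all 3. The split between directions depends on the scaling. Of genes called against LIM1215, 47.4% were higher in Caco2, against 62.7% with median-centred deposited values, which moved the median log2 difference of all genes to 0.31, 61.8% when their spread was scaled too, and 22.7% with values centred on the negative controls, which moved it to -0.56. Of genes called against both, 48.2% were higher, against 27% with that control centring. Of 240 listed, marker or rank-chosen genes called against both, 0 changed direction in any other setting. Without LIM1215 replicate 3, 2768 genes were higher (15.6%) and 3051 lower (17.2%).

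The genes with the largest differences were far above background in one set of lines and near it in the other. FN1, which encodes the matrix glycoprotein fibronectin, had 16.16, 16.18 and 16.23 on the Caco2 arrays, against 2.79, 2.96 and 2.79 on the LIM1215 arrays and 2.50, 2.79 and 2.84 on the SW48 arrays. IGF2BP1, an RNA-binding protein of fetal tissues, had 16.22, 16.24 and 16.15 on the Caco2 arrays, against 3.36, 3.43 and 3.54 on the LIM1215 arrays and 2.50, 3.28 and 3.47 on the SW48 arrays. AHSG, which encodes the liver-secreted glycoprotein fetuin-A, had 14.92, 14.87 and 15.16 on the Caco2 arrays, against 2.58, 2.66 and 2.60 on the LIM1215 arrays and 3.29, 2.77 and 3.59 on the SW48 arrays. In these 3 genes every Caco2 array was far above background, every other array was near background and the groups did not overlap. FN1 had log2 differences of 13.34 from LIM1215 and 13.48 from SW48 (SE 0.14 each, limma adjusted p = 1.08e-11 and 4.89e-12), which puts it at least 739-fold above LIM1215 and at least 462-fold above SW48. IGF2BP1 was at least 747-fold above LIM1215 and at least 467-fold above SW48, and AHSG was at least 320-fold above LIM1215 and at least 200-fold above SW48.

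The other 12 of the 15 genes chosen by rank in this direction encode secreted plasma and lipid-carrying proteins, growth factor and matrix genes, and a gap junction channel. The plasma protein genes FGG and FGA, fibrinogen chains of the blood clot, are described with their group, as are APOB, APOE and APOA2. IGF2, the fetal growth factor that is normally expressed from the paternal allele, had 15.48, 15.46 and 15.44 on the Caco2 arrays, against 3.69, 4.30 and 4.15 on the LIM1215 arrays and 4.37, 4.30 and 3.87 on the SW48 arrays. GJA1, the gap junction channel connexin 43, had log2 differences of 12.15 and 11.74 from LIM1215 and SW48 and was at least 214-fold above LIM1215 and at least 134-fold above SW48. PDGFRA, a receptor for platelet-derived growth factor that marks mesenchymal cells, had 14.53, 14.64 and 14.68 on the Caco2 arrays, against 4.31, 3.90 and 3.18 on the LIM1215 arrays and 2.45, 2.53 and 2.26 on the SW48 arrays. Of 5 fibroblast markers 0 were above background in Caco2, 1 in LIM1215 (COL1A2) and 0 in SW48, with summed log2 values of 23.5 to 26.1 in Caco2, against 21.5 to 22.6 in LIM1215 and 19.2 to 19.9 in SW48.

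Matrix genes made up most of the rest. LAMA1, a laminin chain of basement membranes, had log2 differences of 11.36 and 10.97 from LIM1215 and SW48. FBLN1, the matrix protein fibulin 1, had 10.84 and 11.79, and VCAN, the proteoglycan versican, had 10.95 and 10.80. CHI3L1, a secreted chitinase-like glycoprotein, had 11.28 and 11.14 and was at least 106-fold above LIM1215 and at least 66.3-fold above SW48. None of the 15 genes overlapped between Caco2 and the other lines, since that was part of the rule that named them.

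**Figure D1:**
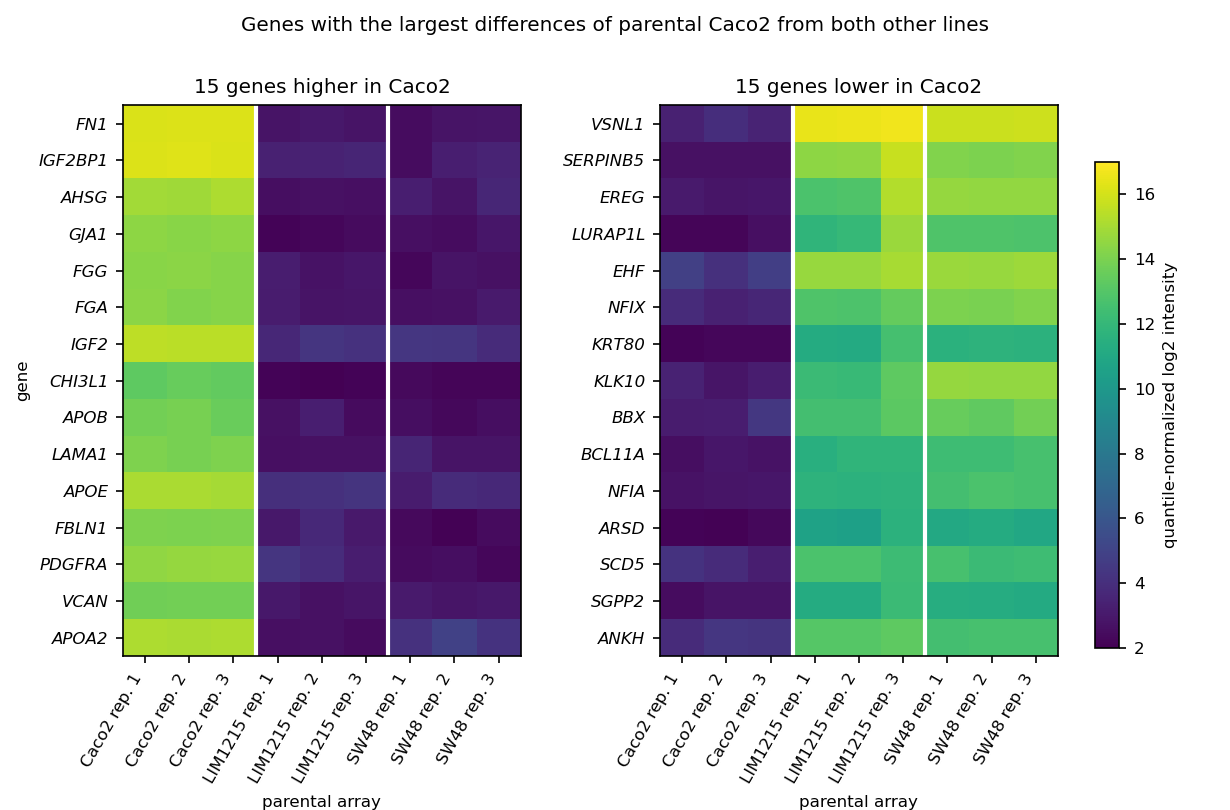
Quantile-normalized log2 intensity (colour) of the 15 higher and 15 lower genes with the largest differences of parental Caco2 from both other lines, with genes in rows and the 9 parental arrays in columns, Caco2 leftmost. FN1 lies at 16.16 to 16.23 in Caco2 and at 2.50 to 2.96 in the other lines, and VSNL1 at 3.36 to 3.93 in Caco2 and at 15.81 to 16.68 in the others.

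In the opposite direction, VSNL1, a neuronal calcium sensor protein, had 3.36, 3.93 and 3.50 on the Caco2 arrays, against 16.51, 16.53 and 16.68 on the LIM1215 arrays and 15.82, 15.81 and 15.84 on the SW48 arrays. It had log2 differences of -12.98 from LIM1215 and -12.22 from SW48 (SE 0.17 each, limma adjusted p = 1.61e-11 and 7.11e-12) and was at least 407-fold below LIM1215 and at least 242-fold below SW48. SERPINB5, the epithelial serpin maspin, had 2.66, 2.64 and 2.67 on the Caco2 arrays, against 14.43, 14.49 and 15.77 on the LIM1215 arrays and 14.18, 14.05 and 14.18 on the SW48 arrays. All Caco2 arrays were near background for both genes and all other arrays were above it. LIM1215 replicate 3 was the highest array for SERPINB5, and without it the log2 differences were -11.80 and -11.47.

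EREG, which encodes the EGFR ligand epiregulin, had 3.08, 2.85 and 2.90 on the Caco2 arrays, against 12.75, 12.89 and 15.27 on the LIM1215 arrays and 14.61, 14.59 and 14.56 on the SW48 arrays. LIM1215 replicate 3 was above its partners, and without it the log2 differences from LIM1215 and SW48 were -9.86 and -11.65, against -10.69 and -11.64 with it. EHF, an epithelial transcription factor of the ETS family, had 4.83, 4.09 and 4.76 on the Caco2 arrays, against 14.71, 14.70 and 15.06 on the LIM1215 arrays and 14.74, 14.70 and 14.83 on the SW48 arrays and was at least 121-fold below LIM1215 and at least 116-fold below SW48. A pair of nuclear factor I transcription factors lay in this group. NFIA had log2 differences of -8.86 and -9.81 and NFIX of -9.42 and -10.45. BCL11A, a transcriptional repressor best known for silencing fetal globin, had -8.98 and -9.73, and BBX, an HMG-box protein, had -9.14 and -9.96.

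Among the remaining lower genes, KRT80, an epithelial keratin, had 2.14, 2.28 and 2.28 on the Caco2 arrays, against 11.24, 11.16 and 12.57 on the LIM1215 arrays and 11.60, 11.67 and 11.64 on the SW48 arrays. KLK10, a kallikrein-family secreted serine protease, was at least 24.7-fold below LIM1215 and at least 103-fold below SW48. SCD5, a stearoyl-CoA desaturase, had log2 differences of -8.82 and -8.64, SGPP2, a sphingosine-1-phosphate phosphatase, had -8.89 and -8.61, ARSD, an arylsulfatase family member, had -8.73 and -8.91, ANKH, a membrane protein of pyrophosphate export, had -8.99 and -8.47, and LURAP1L had -10.54 and -10.54, or -9.55 and -10.49 without LIM1215 replicate 3. The smallest lower bound in this group was that of ARSD, at least 8.11-fold below LIM1215 and at least 9.15-fold below SW48.

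Gene lists were read against the shares among all genes, 14.8% higher and 15.9% lower, with a median log2 difference of -0.04 from LIM1215 and -0.10 from SW48. The lists with the largest share of higher genes were liver-type plasma proteins, oncofetal and imprinted genes, and apolipoproteins. Those with the largest share of lower genes were metallothioneins, p53 targets and HLA class I presentation. At an unadjusted p under 0.05 in both limma comparisons, the lists of plasma proteins, apolipoproteins, colonocyte markers and cancer-testis antigens still had 0 lower genes, and metallothioneins, HLA class I and mismatch repair still had 0 higher genes.

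**Figure D2:**
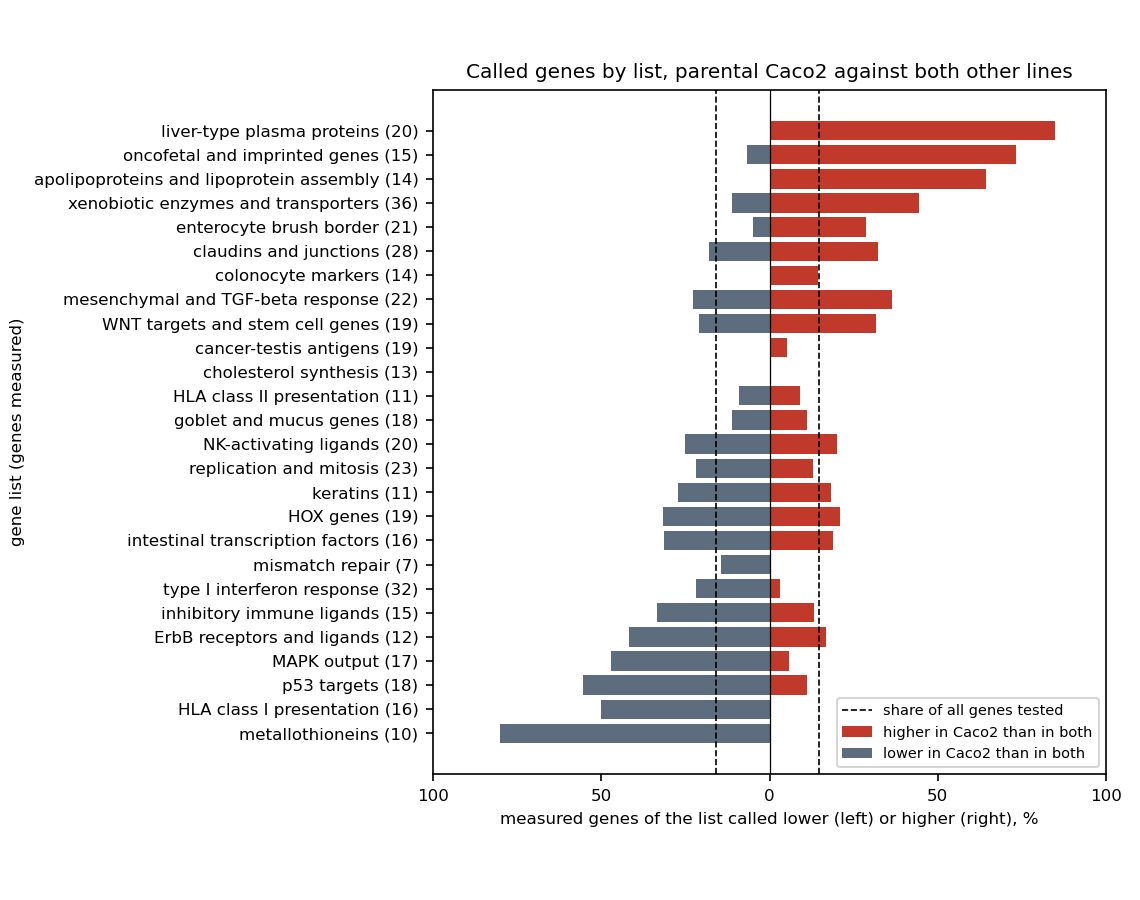
Share of the measured genes of each of 26 lists called higher (bars to the right) or lower (bars to the left) in parental Caco2 than in both other lines, in percent, with the number of genes measured in brackets. Dashed lines mark the shares among all 17687 genes, 14.8% higher and 15.9% lower.

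Liver-type plasma proteins were the most one-sided of the 26 lists by these shares. Of 20 measured, 17 were higher in Caco2 than in both lines (85.0%) and 0 were lower, with median log2 differences of 8.59 from LIM1215 and 9.55 from SW48. Above background were 14 of 20 in Caco2, 0 in LIM1215 and 0 in SW48. AFP, the fetal counterpart of albumin and a marker of liver and yolk sac tumours, had 12.46, 12.61 and 12.62 on the Caco2 arrays, against 2.89, 3.42 and 3.23 on the LIM1215 arrays and 2.54, 2.90 and 2.47 on the SW48 arrays. ALB, serum albumin, had 12.32, 12.42 and 12.12 on the Caco2 arrays, against 3.06, 2.81 and 3.05 on the LIM1215 arrays and 4.59, 4.92 and 4.81 on the SW48 arrays. LIM1215 and SW48 were near background for both genes, and no Caco2 array overlapped them.

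The 3 fibrinogen chains were high together. FGA had 14.38, 14.17 and 14.27 on the Caco2 arrays, against 3.13, 2.82 and 2.85 on the LIM1215 arrays and 2.62, 2.65 and 3.08 on the SW48 arrays and FGG had 14.34, 14.40 and 14.25 on the Caco2 arrays, against 3.21, 2.76 and 2.91 on the LIM1215 arrays and 2.25, 2.80 and 2.69 on the SW48 arrays. FGB had 13.03, 13.02 and 12.81 on the Caco2 arrays, against 2.91, 3.01 and 2.78 on the LIM1215 arrays and 2.57, 2.85 and 2.81 on the SW48 arrays. FGA was at least 196-fold above LIM1215 and at least 122-fold above SW48, with log2 differences of 11.34 from LIM1215 and 11.49 from SW48 (SE 0.17 each, limma adjusted p = 1.99e-11 and 1.01e-11). TTR, the thyroid hormone carrier transthyretin, had 14.12, 13.87 and 14.12 on the Caco2 arrays, against 3.78, 3.58 and 3.33 on the LIM1215 arrays and 3.26, 3.32 and 3.79 on the SW48 arrays, and RBP4, the retinol carrier it binds in blood, had 14.78, 15.12 and 15.22 on the Caco2 arrays, against 4.57, 3.93 and 4.54 on the LIM1215 arrays and 2.86, 3.01 and 2.90 on the SW48 arrays. The 3 listed members that were not called higher than in both were F5, a coagulation cofactor, AMBP, the precursor of alpha-1-microglobulin, and A2M, a protease inhibitor, which were near background in all lines and are named after their values were seen. HP, SERPINC1 and SERPIND1, which encode haptoglobin and the thrombin inhibitors antithrombin and heparin cofactor II, were called higher while near background in all lines, and are likewise named after the fact.

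Hepatocyte markers were mixed in Caco2. ALB, FGB and TTR, which also stand in the plasma protein list, were above background in Caco2, whereas the adult liver enzymes CYP3A4 and CPS1 were near background. CYP3A4, the main drug-oxidising cytochrome P450 of liver, had 2.94, 2.36 and 2.75 in Caco2, 2.97, 2.52 and 2.67 in LIM1215 and 2.18, 2.72 and 2.48 in SW48. CPS1, the first enzyme of the urea cycle, had 4.17, 3.95 and 4.01 in Caco2, 5.83, 5.67 and 6.15 in LIM1215 and 9.73, 9.68 and 9.54 in SW48, so SW48 was the highest line for it. The summed log2 value of the 5 markers was 45.6 to 46.6 in Caco2, 17.6 to 18.6 in LIM1215 and 22.3 to 23.5 in SW48.

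Promoters of 5 plasma protein genes are shown because their windows hold a binding motif of a liver-type nuclear factor. They are RefSeq sequences of build GRCh38.p14, 250 bases before to 50 after the annotated start, written 5′ to 3′ on the gene's strand, with the motif in capitals. AFP lies on the plus strand at chr4:73435971-73436270, ALB on the plus strand at chr4:73404037-73404336, FGA on the minus strand at chr4:154590693-154590992, AHSG on the plus strand at chr3:186612810-186613109 and F10, coagulation factor X, on the plus strand at chr13:113122549-113122848. AFP and ALB hold the HNF1 motif GTTAATNAT as written, and FGA holds its reverse complement. AHSG and F10 hold the reverse complement of the HNF4 motif CAAAGTCCA.
AFP: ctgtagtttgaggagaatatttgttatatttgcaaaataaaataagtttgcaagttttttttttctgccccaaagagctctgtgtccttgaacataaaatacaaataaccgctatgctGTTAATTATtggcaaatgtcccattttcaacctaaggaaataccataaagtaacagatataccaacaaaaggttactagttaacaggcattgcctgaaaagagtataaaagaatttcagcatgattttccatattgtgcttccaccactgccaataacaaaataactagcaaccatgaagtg
ALB: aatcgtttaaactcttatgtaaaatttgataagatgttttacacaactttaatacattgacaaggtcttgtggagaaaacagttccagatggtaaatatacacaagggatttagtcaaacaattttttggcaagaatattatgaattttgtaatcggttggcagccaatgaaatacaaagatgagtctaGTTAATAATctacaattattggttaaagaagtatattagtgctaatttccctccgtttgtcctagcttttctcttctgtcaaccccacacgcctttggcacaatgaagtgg
FGA: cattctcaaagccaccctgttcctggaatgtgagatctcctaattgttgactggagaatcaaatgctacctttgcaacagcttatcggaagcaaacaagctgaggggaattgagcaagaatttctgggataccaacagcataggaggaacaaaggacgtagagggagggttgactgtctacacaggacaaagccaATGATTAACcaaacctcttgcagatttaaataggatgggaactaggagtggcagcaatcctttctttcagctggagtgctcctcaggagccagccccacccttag
AHSG: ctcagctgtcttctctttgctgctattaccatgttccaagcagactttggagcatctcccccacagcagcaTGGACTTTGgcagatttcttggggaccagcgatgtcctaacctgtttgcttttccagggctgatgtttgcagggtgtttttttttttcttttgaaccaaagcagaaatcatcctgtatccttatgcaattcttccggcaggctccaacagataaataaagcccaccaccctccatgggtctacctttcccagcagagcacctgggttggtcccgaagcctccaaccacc
F10: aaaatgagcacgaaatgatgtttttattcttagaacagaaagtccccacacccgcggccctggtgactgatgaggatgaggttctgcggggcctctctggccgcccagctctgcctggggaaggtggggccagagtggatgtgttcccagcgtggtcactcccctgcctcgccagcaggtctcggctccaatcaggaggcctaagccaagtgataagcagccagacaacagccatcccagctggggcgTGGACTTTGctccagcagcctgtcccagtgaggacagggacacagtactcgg

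Promoters matched 14250 of the 17687 genes tested, among them 15 of the 20 plasma protein genes and 10 of the 14 of the apolipoprotein list. Both strands of each window were searched, and 0 of the plasma protein promoters held both the HNF1 and the HNF4 motif. The HNF1 motif was in 77 of all 14250 promoters (0.54%), in 16 of 2105 promoters of genes higher in Caco2 (0.76%), in 11 of 2329 of lower genes (0.472%) and in 3 of the 15 plasma protein promoters (20%). The HNF4 motif was in 49 of all promoters (0.344%), in 11 of the higher genes (0.523%), in 4 of the lower genes (0.172%) and in 2 of the 15 (13.3%). The apolipoprotein list had 0 of 10 for HNF1 and for HNF4. The motifs were chosen after the gene values were seen, and 2 others were searched as well. The GATA motif AGATAA was in 1083 of all promoters (7.6%), 166 of the higher genes (7.89%), 114 of the lower genes (4.89%), 3 of the 15 plasma protein promoters and 3 of the 10 of the apolipoprotein list. The AP-1 motif TGANTCA was in 820 of all promoters (5.75%), 104 of the higher genes (4.94%), 124 of the lower genes (5.32%), 0 of the 15 and 2 of the 10. The HNF1 motif was first searched with 1 more T at its 3′ end and was shortened after that search. The longer form was in 34 of all promoters (0.239%), 7 of the higher genes (0.333%), 2 of the lower genes (0.0859%) and 2 of the 15 plasma protein promoters, AFP and FGA. A match describes letters in a window and is no evidence of binding.

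Apolipoproteins and genes of lipoprotein assembly followed the same direction. Of 14 measured, 9 were higher in Caco2 than in both lines (64.3%) and 0 lower, with median log2 differences of 3.80 and 6.28. APOA1, the main protein of high-density lipoprotein, had 13.94, 13.92 and 13.92 on the Caco2 arrays, against 3.16, 3.31 and 3.34 on the LIM1215 arrays and 4.15, 4.23 and 3.87 on the SW48 arrays. APOB, the structural protein of chylomicrons and low-density lipoprotein, had 13.82, 13.95 and 13.60 on the Caco2 arrays, against 2.66, 3.28 and 2.45 on the LIM1215 arrays and 2.58, 2.35 and 2.57 on the SW48 arrays. APOE, a ligand of lipoprotein receptors, had 15.07, 15.12 and 14.97 on the Caco2 arrays, against 4.03, 4.09 and 4.26 on the LIM1215 arrays and 3.16, 3.83 and 3.70 on the SW48 arrays. No Caco2 array overlapped another line for these genes, and APOB was at least 140-fold above LIM1215 and at least 87.5-fold above SW48.

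APOA2, another protein of high-density lipoprotein, was at least 355-fold above LIM1215 and at least 222-fold above SW48. APOC3, an inhibitor of lipoprotein lipase, had 10.40, 9.57 and 9.62 on the Caco2 arrays, against 3.89, 4.99 and 3.91 on the LIM1215 arrays and 4.47, 4.35 and 4.10 on the SW48 arrays, and APOH, which binds phospholipids in plasma, had 12.01, 11.87 and 11.82 on the Caco2 arrays, against 5.18, 5.17 and 2.95 on the LIM1215 arrays and 2.95, 2.85 and 2.82 on the SW48 arrays. MTTP, the transfer protein that loads lipid onto apolipoprotein B, was near background in all 3 lines, with 4.67, 4.72 and 4.77 in Caco2, 4.77, 5.03 and 5.04 in LIM1215 and 4.58, 4.69 and 4.33 in SW48, and was not called in either comparison.

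**Figure D3:**
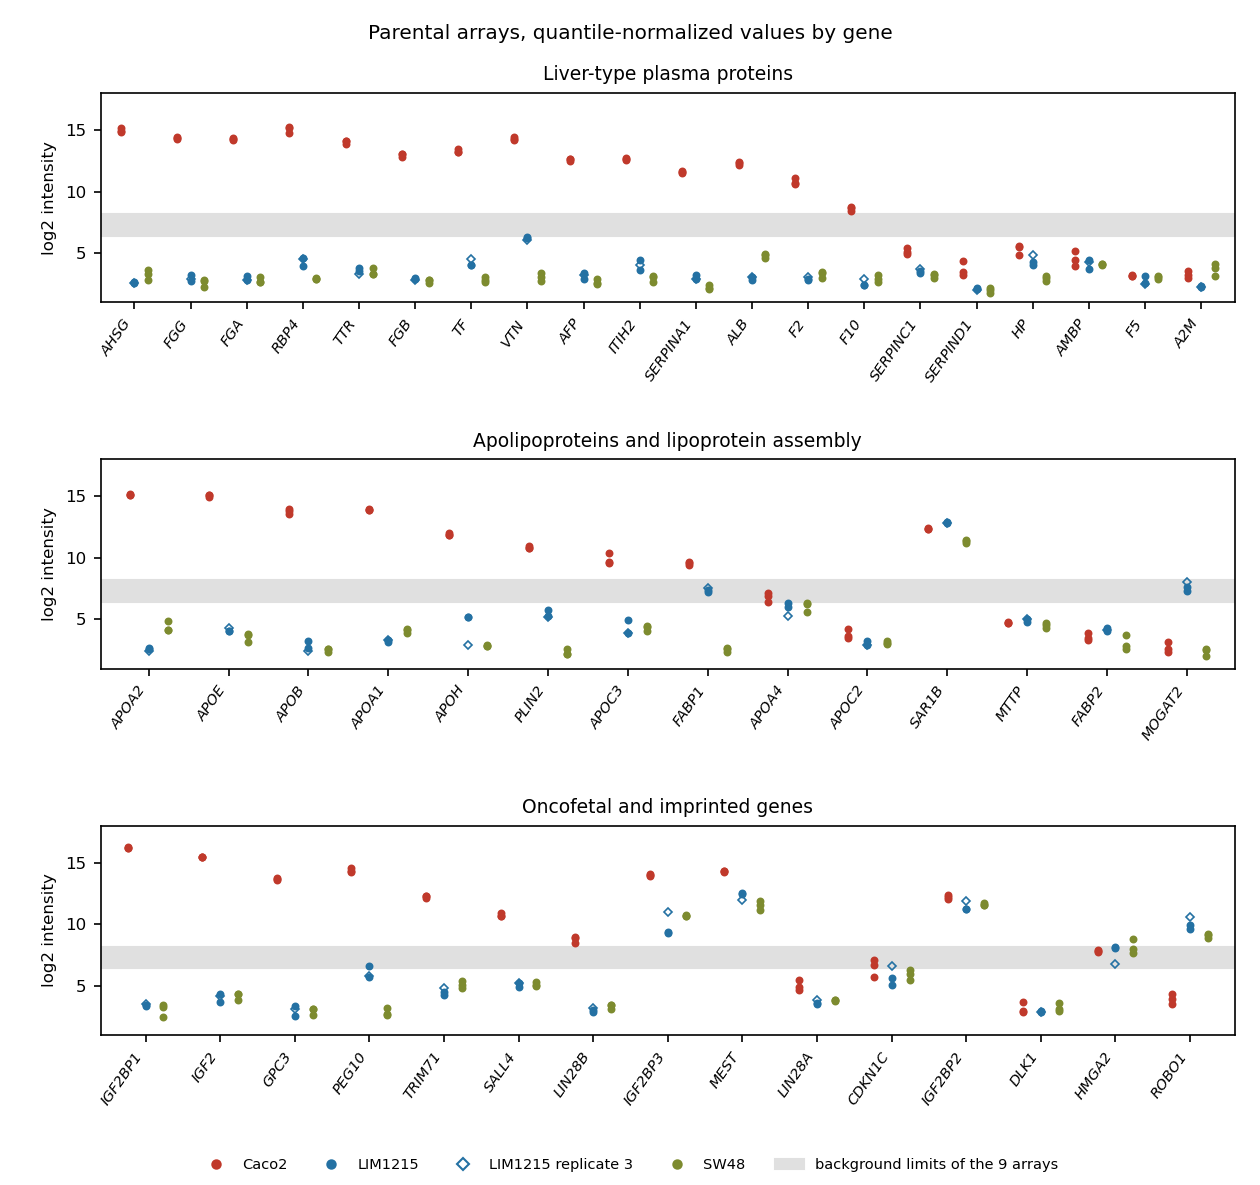
Quantile-normalized log2 intensity on each parental array for liver-type plasma proteins, apolipoproteins and lipoprotein assembly genes, and oncofetal and imprinted genes, with Caco2 at the left of each gene. Open diamonds are LIM1215 replicate 3 and the grey band spans the background limits of the 9 arrays. Of the 20 plasma proteins, 14 have Caco2 means above background and 0 have LIM1215 or SW48 means above it.

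Oncofetal and imprinted genes, which are active in the embryo and reappear in some tumours, were mostly higher. Of 15 measured, 11 were higher in Caco2 than in both lines (73.3%) and 1 lower, with median log2 differences of 4.12 and 3.31. GPC3, the cell-surface proteoglycan glypican 3 of fetal liver and liver cancer, had 13.61, 13.75 and 13.67 on the Caco2 arrays, against 2.57, 3.35 and 3.13 on the LIM1215 arrays and 3.08, 2.62 and 3.13 on the SW48 arrays. PEG10, an imprinted gene derived from a retrotransposon, had 14.20, 14.53 and 14.32 on the Caco2 arrays, against 5.69, 6.61 and 5.80 on the LIM1215 arrays and 3.21, 2.58 and 2.74 on the SW48 arrays. Both were above background in Caco2 alone.

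LIN28B, an RNA-binding protein that blocks the maturation of let-7 microRNAs, had 8.45, 8.84 and 8.92 on the Caco2 arrays, against 2.86, 3.04 and 3.18 on the LIM1215 arrays and 3.09, 3.42 and 3.43 on the SW48 arrays. TRIM71, itself a let-7 target in the embryo, had 12.16, 12.28 and 12.26 on the Caco2 arrays, against 4.21, 4.49 and 4.80 on the LIM1215 arrays and 5.10, 4.82 and 5.39 on the SW48 arrays, and SALL4, a stem cell zinc-finger factor, had 10.69, 10.69 and 10.88 on the Caco2 arrays, against 4.93, 5.19 and 5.23 on the LIM1215 arrays and 4.94, 5.32 and 5.08 on the SW48 arrays. These 3 genes were near background on every array of LIM1215 and SW48. The lower member was ROBO1, a receptor for the guidance protein SLIT, which was named after its values were seen and had 3.93, 3.56 and 4.31 in Caco2, 9.62, 9.97 and 10.59 in LIM1215 and 9.22, 9.11 and 8.84 in SW48.

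Transcription factors of the intestinal lining changed in both directions. Of 16 measured, 3 were higher in Caco2 than in both lines and 5 lower (31.2%), with median log2 differences of -1.09 and 0.27. FOXA2, an endodermal pioneer factor, had 11.75, 11.87 and 11.95 on the Caco2 arrays, against 8.67, 9.05 and 9.97 on the LIM1215 arrays and 3.35, 3.14 and 3.15 on the SW48 arrays. FOXA1, its close relative, had 14.75, 14.71 and 14.73 on the Caco2 arrays, against 12.88, 12.95 and 12.94 on the LIM1215 arrays and 10.13, 10.56 and 10.16 on the SW48 arrays. All 3 Caco2 arrays lay above the others for both genes, and FOXA1 had log2 differences of 1.81 from LIM1215 and 4.44 from SW48 (SE 0.15 each, limma adjusted p = 2.41e-06 and 1.94e-09). The third was ISX, an intestinal homeobox factor, which was near background in every line.

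HNF4G, an orphan nuclear receptor of the gut, was lower at 5.61, 5.61 and 5.12 on the Caco2 arrays, against 11.18, 11.38 and 11.82 on the LIM1215 arrays and 10.89, 11 and 11.02 on the SW48 arrays, and was at least 11.8-fold below LIM1215 and at least 8.38-fold below SW48. KLF4, a zinc-finger factor of differentiated epithelium, had 4.45, 4.46 and 4.42 on the Caco2 arrays, against 6.90, 6.94 and 8.05 on the LIM1215 arrays and 11.97, 11.75 and 11.93 on the SW48 arrays. KLF5, a related factor of crypt cells, had log2 differences of -1.32 and -1.5 from LIM1215 and SW48, SOX9, a stem and progenitor cell factor, had -1.05 and -2.78, and PDX1, a pancreatic and duodenal factor, was called lower while near background in all lines. With values under the highest background limit set to that limit, called the background floor below, 2 of the 16 were lower rather than 5.

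The intestinal identity factor CDX2 had 13.12, 13.25 and 13.10 in Caco2, 14.26, 14.20 and 14.43 in LIM1215 and 13.30, 13.41 and 13.45 in SW48; it was called against LIM1215 and not against SW48, with log2 differences of -1.14 and -0.23. GATA6, a zinc-finger factor of endoderm, was above background in Caco2 and LIM1215, with 13.13, 13.15 and 13.13 in Caco2, 12.58, 12.50 and 13.12 in LIM1215 and 6.72, 6.69 and 7.07 in SW48. It was called against SW48 and not against LIM1215, although without LIM1215 replicate 3 it was called against both. The other 6 listed factors were not called in the same direction against both. The log2 differences from LIM1215 and SW48 were -2.52 and -0.28 for VDR, the vitamin D receptor, and -0.08 and 4.97 for NR5A2, an orphan nuclear receptor. CDX1, an intestinal homeobox factor, and ELF3, an epithelial ETS factor, were near background in Caco2 and SW48, with log2 differences from LIM1215 of -6.68 and -4.49. GATA4 and FOXA3 were near background in all lines.

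Brush border genes, which encode digestive enzymes and microvillus proteins, were higher for 6 of 21 (28.6%) and lower for 1 (4.76%), with median log2 differences of -0.03 and 1.54. DPP4, a membrane peptidase, had 15.17, 15.36 and 15.10 on the Caco2 arrays, against 7.52, 7.41 and 8.53 on the LIM1215 arrays and 12.16, 11.75 and 11.97 on the SW48 arrays and was 169-fold above LIM1215 and 9.55-fold above SW48. MEP1A, the metalloprotease meprin A, had 9.50, 9.52 and 9.51 on the Caco2 arrays, against 3.00, 3.50 and 2.79 on the LIM1215 arrays and 2.42, 2.74 and 2.43 on the SW48 arrays. The other 4 higher genes, ANPEP, ESPN, SI and ALPI, were near background in all lines. ANPEP, aminopeptidase N, had 7.62, 7.50 and 7.78 in Caco2, 2.82, 3.41 and 4.42 in LIM1215 and 4.57, 4.61 and 3.72 in SW48, and SI, sucrase-isomaltase, had 4.96, 4.92 and 4.11 in Caco2, 3.17, 3.07 and 2.87 in LIM1215 and 2.97, 3.29 and 3.10 in SW48. The background floor left 2 called higher. PLS1, the microvillus actin bundler fimbrin, was the lower one, at 9.22, 9.27 and 8.76 in Caco2, 13.10, 13.20 and 13.64 in LIM1215 and 10.45, 10.33 and 10.72 in SW48.

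Markers of mature colonocytes were higher for 2 of 14 (14.3%), close to the share of all genes, and lower for 0. TMEM37 had 10.16, 10.03 and 10.02 on the Caco2 arrays, against 6.37, 5.77 and 6.81 on the LIM1215 arrays and 4.90, 4.48 and 4.84 on the SW48 arrays. SLC26A3, the chloride exchanger of colonocytes, was called higher while near background in all lines. With the background floor, and with within-array ranks, 1 was higher. Goblet and mucus genes were higher for 2 of 18 (11.1%) and lower for 2 (11.1%), against 0 and 0 with that floor. TFF1, a secreted trefoil peptide, was the called gene above background, with 7.95, 8.63 and 7.73 on the Caco2 arrays, against 3.50, 2.93 and 4.40 on the LIM1215 arrays and 3.52, 2.72 and 2.62 on the SW48 arrays.

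Enzymes and transporters that handle drugs and toxins were higher for 16 of 36 (44.4%) and lower for 4 (11.1%), with median log2 differences of 0.15 and 1.75. The background floor left 10 higher and 1 lower. ABCC2, an apical efflux pump for conjugates, had 13.13, 12.99 and 13.03 on the Caco2 arrays, against 5.10, 5.31 and 6.41 on the LIM1215 arrays and 2.38, 2.21 and 2.62 on the SW48 arrays. GSTA2, a glutathione transferase, had 11.95, 11.66 and 11.78 on the Caco2 arrays, against 3.74, 3.14 and 3.95 on the LIM1215 arrays and 3.55, 3.91 and 3.31 on the SW48 arrays, and CES1, a carboxylesterase of liver, had 11.47, 11.42 and 11.13 on the Caco2 arrays, against 5.13, 5.51 and 5.30 on the LIM1215 arrays and 5.28, 6.05 and 5.36 on the SW48 arrays. ALDH1A1, a retinal dehydrogenase, had 10.79, 10.75 and 10.77 on the Caco2 arrays, against 4.55, 4.27 and 4.0 on the LIM1215 arrays and 4.08, 3.64 and 3.69 on the SW48 arrays. These 4 genes were near background on the LIM1215 and SW48 arrays. SLC15A1, the dipeptide transporter of small intestine, had 8.48, 7.47 and 8.31 on the Caco2 arrays, against 2.78, 3.32 and 3.17 on the LIM1215 arrays and 3.98, 2.39 and 2.94 on the SW48 arrays and was at least 2.69-fold above LIM1215 and at least 1.68-fold above SW48. Probe sets of the glutathione transferases GSTA1 and GSTA2 can bind near-identical paralogues, so which of them gave the signal is uncertain.

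Genes of mesenchymal cells and of the TGF-beta response moved in both directions, with 8 of 22 higher (36.4%) and 5 lower (22.7%), and median log2 differences of 0.47 and 0.97. VIM, the intermediate filament vimentin, had 12.06, 12.01 and 11.93 on the Caco2 arrays, against 3.67, 3.27 and 3.27 on the LIM1215 arrays and 3.47, 3.19 and 3.48 on the SW48 arrays. TAGLN, an actin-binding protein of smooth muscle, had 12.97, 13.08 and 13.04 on the Caco2 arrays, against 3.68, 4.15 and 3.54 on the LIM1215 arrays and 3.68, 3.17 and 3.01 on the SW48 arrays. CCN2, a secreted matricellular growth factor, had 11.03, 11.16 and 11.21 on the Caco2 arrays, against 6.71, 6.93 and 8.64 on the LIM1215 arrays and 4.85, 5.0 and 4.21 on the SW48 arrays. The 3 genes did not overlap between Caco2 and the other lines.

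IGFBP3, a binding protein of insulin-like growth factors, was lower, at 3.25, 3.79 and 3.78 on the Caco2 arrays, against 11.86, 11.90 and 11.90 on the LIM1215 arrays and 10.55, 10.09 and 10.37 on the SW48 arrays, and was at least 15.8-fold below LIM1215 and at least 5.4-fold below SW48. PMEPA1, a TGF-beta-induced inhibitor of SMAD signalling, had 4.63, 4.10 and 3.70 on the Caco2 arrays, against 8.85, 8.82 and 9.13 on the LIM1215 arrays and 9.37, 9.78 and 9.33 on the SW48 arrays. The other 3 lower members, named after their values were seen, were the ligand gene TGFB1 (log2 differences -1.94 and -2.77), the inhibitory SMAD gene SMAD7 (-2.26 and -5.37) and the caveola coat gene CAV1 (-2.70 and -6.23).

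Epithelial junction genes stood beside these. Of 28 measured, 9 were higher (32.1%) and 5 lower (17.9%). GJB1, the liver gap junction channel connexin 32, had 11.05, 11.12 and 11.20 on the Caco2 arrays, against 4.35, 4.36 and 4.43 on the LIM1215 arrays and 2.53, 2.19 and 2.30 on the SW48 arrays. CGN, the tight junction adaptor cingulin, had 10.90, 10.81 and 10.67 on the Caco2 arrays, against 8.37, 8.31 and 8.32 on the LIM1215 arrays and 4.80, 4.41 and 4.47 on the SW48 arrays, and CDH1, E-cadherin, had 14.50, 14.46 and 14.27 on the Caco2 arrays, against 13.34, 13.11 and 13.48 on the LIM1215 arrays and 13.42, 13.42 and 13.40 on the SW48 arrays. Lower members included CLDN7, a claudin of colonic epithelium, with 12.81, 12.57 and 12.71 in Caco2, 15.44, 15.50 and 15.88 in LIM1215 and 14.08, 14 and 14 in SW48, and DSG2, a desmosomal cadherin, with log2 differences of -2.26 and -2.45. Among 11 keratins, 2 were higher (18.2%) and 3 lower (27.3%), against 1 and 1 with the background floor and 5 higher when median and spread of the deposited values were scaled, and KRT16, a keratin of stratified epithelium, had 5.52, 5.12 and 5.71 in Caco2, 6.68, 7.01 and 6.78 in LIM1215 and 15.69, 15.74 and 15.83 in SW48.

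Ligands and receptors of the ErbB family were higher for 2 of 12 (16.7%) and lower for 5 (41.7%), with median log2 differences of -0.50 and -0.30. This became 0 higher and 3 lower with the background floor. EGFR, the receptor that cetuximab binds, had 10.08, 9.73 and 9.99 on the Caco2 arrays, against 10.88, 10.80 and 10.82 on the LIM1215 arrays and 13.79, 14 and 14.05 on the SW48 arrays. Every Caco2 array lay below every other array, and EGFR had log2 differences of -0.90 from LIM1215 and -4.01 from SW48 (SE 0.15 each, limma adjusted p = 0.00037 and 3.8e-09), which is 1.87-fold below LIM1215 and 16.2-fold below SW48. Besides EREG, the EGFR ligands TGFA and BTC were lower. TGFA had 3.28, 3.32 and 3.08 on the Caco2 arrays, against 11.47, 11.38 and 11.50 on the LIM1215 arrays and 9.48, 9.38 and 9.59 on the SW48 arrays, and BTC, betacellulin, had 3.29, 2.57 and 2.68 on the Caco2 arrays, against 7.03, 7.15 and 7.75 on the LIM1215 arrays and 8.61, 8.37 and 8.44 on the SW48 arrays. ERRFI1, a feedback inhibitor of EGFR, had log2 differences of -1.06 and -1.37. The 2 higher members, the ErbB3 and ErbB4 ligands NRG1 and NRG4, were near background in all lines. ERBB3, the receptor partner, was not called against either, at 12.83, 12.83 and 12.99 in Caco2, 13.15, 13.15 and 14.25 in LIM1215 and 12.72, 12.49 and 12.66 in SW48.

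Transcripts that respond to the MAPK cascade were lower for 8 of 17 (47.1%) and higher for 1 (5.88%), with median log2 differences of -1.01 and -1.87. DUSP4, a phosphatase that shuts off MAP kinases, had 7.04, 6.43 and 5.98 on the Caco2 arrays, against 10.87, 10.73 and 11.19 on the LIM1215 arrays and 13.96, 13.99 and 14.01 on the SW48 arrays. FOSL1, an AP-1 transcription factor, had 7.92, 7.94 and 7.96 on the Caco2 arrays, against 11.21, 11.30 and 11.59 on the LIM1215 arrays and 14.58, 14.75 and 14.80 on the SW48 arrays, and IER3, an immediate early gene, had 11.97, 11.80 and 11.83 on the Caco2 arrays, against 15.27, 15.31 and 16.10 on the LIM1215 arrays and 17, 16.98 and 16.96 on the SW48 arrays. In all 3 genes SW48 was highest and Caco2 lowest, without overlap. DUSP6, a phosphatase specific for ERK, had 11.85, 11.88 and 12.06 on the Caco2 arrays, against 12.53, 12.50 and 13.81 on the LIM1215 arrays and 14.40, 14.18 and 14.41 on the SW48 arrays and was 2.02-fold below LIM1215 and 5.26-fold below SW48. DUSP5, a nuclear ERK phosphatase, was the higher member at 9.59, 9.90 and 9.46 in Caco2, 6.64, 6.41 and 9.90 in LIM1215 and 6.88, 7.36 and 6.52 in SW48; its Caco2 arrays overlapped LIM1215 replicate 3. It was not called when any 1 array other than LIM1215 replicate 3 was left out. With the background floor 5 of the 17 were lower rather than 8.

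WNT targets and stem cell genes split, with 6 of 19 higher (31.6%) and 4 lower (21.1%), or 2 lower when median and spread of the deposited values were scaled. PROM1, the stem cell surface antigen CD133, had 15.45, 15.39 and 15.43 on the Caco2 arrays, against 4.17, 4.65 and 3.83 on the LIM1215 arrays and 13.33, 13.30 and 13.41 on the SW48 arrays. DKK1, a secreted WNT inhibitor, had 15.68, 15.71 and 15.46 on the Caco2 arrays, against 10.39, 10.27 and 9.01 on the LIM1215 arrays and 3.34, 3.02 and 2.06 on the SW48 arrays, and SP5, a transcription factor induced by beta-catenin, had 11.09, 11.34 and 11.25 on the Caco2 arrays, against 5.65, 5.75 and 6.13 on the LIM1215 arrays and 6.53, 6.61 and 4.85 on the SW48 arrays. The lower genes were CD44, a hyaluronan receptor (log2 differences -3.84 and -1.54), AXIN2, the feedback inhibitor of beta-catenin (-1.16 and -2.60), MYC, a growth-promoting transcription factor (-0.99 and -2.19), and ZNRF3, a ligase that removes WNT receptors (-0.41 and -1.57), of which MYC and ZNRF3 were named after their values were seen. The ZNRF3 call against both lines was lost in 8 of the other settings. Without LIM1215 replicate 3 the call against LIM1215 was lost.

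Targets of the tumour suppressor p53 were lower for 10 of 18 (55.6%) and higher for 2 (11.1%), with median log2 differences of -1.30 and -1.34. CDKN1A, the cell cycle inhibitor p21 and the best-known p53 target, had 5.35, 5.08 and 5.61 on the Caco2 arrays, against 14.37, 14.23 and 15.31 on the LIM1215 arrays and 13.40, 13.55 and 13.62 on the SW48 arrays. Every Caco2 array was near background and every other array above it. CDKN1A had log2 differences of -9.29 from LIM1215 and -8.17 from SW48 (SE 0.27 each, limma adjusted p = 8.73e-10 and 1.68e-09) and was at least 106-fold below LIM1215 and at least 49.1-fold below SW48. FAS, a death receptor, had 2.75, 2.53 and 2.85 on the Caco2 arrays, against 9.75, 10.12 and 9.26 on the LIM1215 arrays and 8.50, 8.27 and 8.23 on the SW48 arrays. SPATA18, a mitochondrial quality control gene, had 3.40, 3.08 and 2.88 on the Caco2 arrays, against 7.51, 7.12 and 7.53 on the LIM1215 arrays and 7.49, 7.95 and 7.66 on the SW48 arrays, and PHLDA3, an inhibitor of AKT, had 3.81, 3.93 and 3.96 on the Caco2 arrays, against 8.24, 8.28 and 7.96 on the LIM1215 arrays and 8.65, 8.68 and 8.83 on the SW48 arrays.

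MDM2, which encodes the ligase that degrades p53 and is itself its target, differed less, with 12.76, 12.79 and 12.06 in Caco2, 13.35, 13.30 and 13.01 in LIM1215 and 13.64, 13.71 and 13.79 in SW48. ZMAT3, an RNA-binding target, had log2 differences of -2.44 and -2.64, and DDB2, a DNA damage sensor, had -2.11 and -1.82. The 2 higher members, named after their values were seen, were SESN1, a stress-induced inhibitor of mTOR signalling (1.01 and 2.10), and TP53INP1, a stress-induced nuclear protein (0.82 and 1.36). Of these 2, 1 lost its call without LIM1215 replicate 1 or 2 or Caco2 replicate 1 or 2. With the background floor 1 of the 18 was higher and 5 lower rather than 10.

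Metallothioneins, small proteins that bind zinc and copper, were lower for 8 of the 10 listed genes (80.0%) and higher for 0, with median log2 differences of -5.80 and -4.74. MT2A, the most widely expressed member, had 9.92, 9.92 and 9.69 on the Caco2 arrays, against 16.59, 16.63 and 16.67 on the LIM1215 arrays and 16.09, 16.14 and 16.02 on the SW48 arrays. MT1E had 6.47, 6.48 and 6.19 on the Caco2 arrays, against 13.69, 13.98 and 14.05 on the LIM1215 arrays and 13.85, 13.94 and 13.56 on the SW48 arrays, and MT1X had 10.57, 10.27 and 10.45 on the Caco2 arrays, against 14.71, 14.89 and 14.21 on the LIM1215 arrays and 14.55, 14.65 and 14.29 on the SW48 arrays. The 3 Caco2 arrays lay below all 6 others in each, and MT2A had log2 differences of -6.78 from LIM1215 and -6.24 from SW48 (SE 0.13 each, limma adjusted p = 5.98e-11 and 7.67e-11), or 110-fold below LIM1215 and 75.5-fold below SW48. The exceptions, named after their values were seen, were MT4, a metallothionein of stratified epithelium that was near background in all lines, and SLC30A1, the zinc exporter that the same metal-sensing factor induces. SLC30A1 was above background throughout, at 12.33, 12.33 and 12.41 in Caco2, 12.31, 12.27 and 12.36 in LIM1215 and 12.01, 12.46 and 12.62 in SW48, with log2 differences of 0.04 and -0.01. Metallothionein genes are near-identical copies on chromosome 16, so the signal of a single MT1 probe set may include its neighbours.

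**Figure D4:**
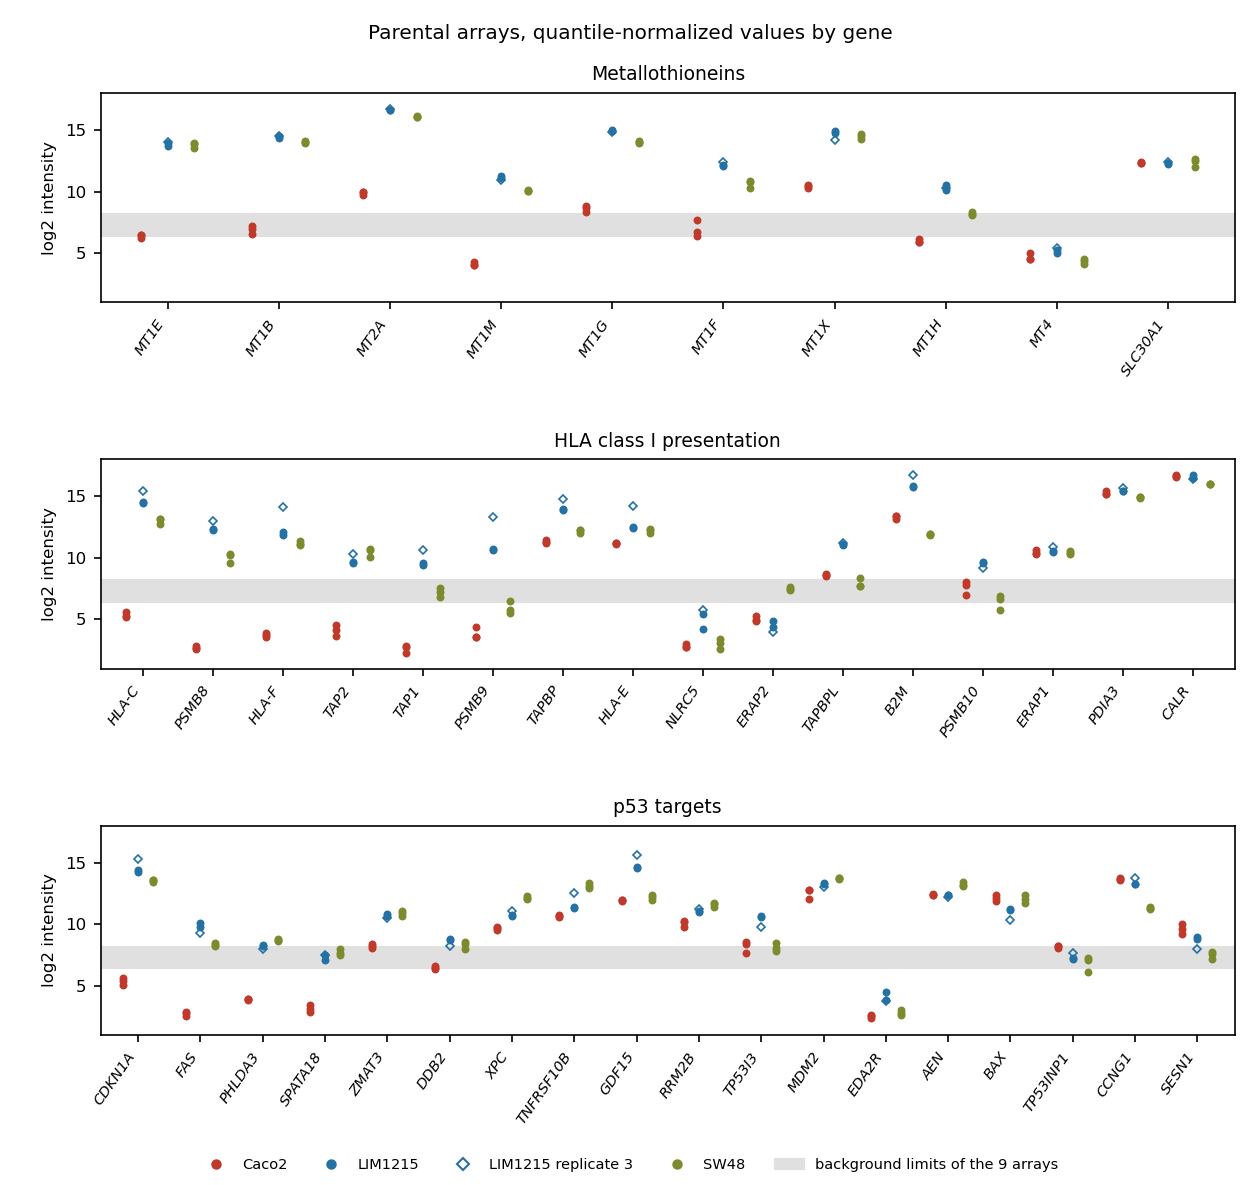
Quantile-normalized log2 intensity on each parental array for the metallothionein list, HLA class I presentation and p53 targets, with Caco2 at the left of each gene, genes ordered by their mean difference, and LIM1215 replicate 3 as open diamonds. The grey band spans the background limits of the 9 arrays. MT2A lies at 9.69 to 9.92 in Caco2, 16.59 to 16.67 in LIM1215 and 16.02 to 16.14 in SW48.

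Genes of HLA class I antigen presentation were lower for 8 of 16 (50%) and higher for 0, with median log2 differences of -2.66 and -0.94. HLA-C, a class I heavy chain, had 5.58, 5.28 and 5.17 on the Caco2 arrays, against 14.47, 14.56 and 15.43 on the LIM1215 arrays and 13.13, 13.15 and 12.71 on the SW48 arrays. PSMB8, a catalytic subunit of the immunoproteasome, had 2.71, 2.59 and 2.85 on the Caco2 arrays, against 12.37, 12.30 and 12.95 on the LIM1215 arrays and 10.21, 10.28 and 9.57 on the SW48 arrays. TAP2, a subunit of the peptide transporter of the endoplasmic reticulum, had 3.64, 4.57 and 4.17 on the Caco2 arrays, against 9.56, 9.63 and 10.30 on the LIM1215 arrays and 10.09, 10.64 and 10.69 on the SW48 arrays. No Caco2 array overlapped the others for these genes, and HLA-C was at least 121-fold below LIM1215 and at least 34.1-fold below SW48.

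HLA-F, a non-classical heavy chain, had log2 differences of -8.94 and -7.47. TAP1, the partner of TAP2, and PSMB9, another immunoproteasome subunit, were near background in Caco2 and SW48, with log2 differences from LIM1215 of -7.25 and -7.70. B2M, the light chain shared by all class I molecules, lay between the other lines at 13.44, 13.18 and 13.39 in Caco2, 15.79, 15.85 and 16.76 in LIM1215 and 11.87, 11.95 and 11.90 in SW48. All 8 calls held without LIM1215 replicate 3. The background floor left 5 lower. Of 11 HLA class II genes, 1 was higher (9.09%) and 1 lower (9.09%). The higher one was CD74, the invariant chain, which was near background in all lines. With the background floor 0 were called in either direction, and without SW48 replicate 2, 2 were lower. Probe sets of HLA genes can bind related heavy chains, so the assignment to a single gene is uncertain.

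Counts of type I interferon genes changed with LIM1215 replicate 3. With all arrays 7 of 32 genes were lower in Caco2 than in both lines (21.9%) and 1 higher (3.12%), with median log2 differences of -4.27 from LIM1215 and -0.32 from SW48. The median from LIM1215 includes replicate 3, whose interferon genes were far higher, and was not computed without it. Without that array 14 were lower and 2 higher, and with the background floor 2 were lower. IFITM3, a membrane protein that blocks virus entry, had 9.16, 8.95 and 9.29 on the Caco2 arrays, against 15.91, 15.75 and 16.50 on the LIM1215 arrays and 13.59, 13.78 and 13.54 on the SW48 arrays and was lower with and without it. IFIH1, the RNA sensor MDA5, had 3.04, 2.93 and 3.25 on the Caco2 arrays, against 8.55, 8.10 and 11.94 on the LIM1215 arrays and 8.55, 8.73 and 9.02 on the SW48 arrays. IFIT1, an antiviral RNA-binding protein, had 3.09, 3.07 and 3.00 on the Caco2 arrays, against 5.55, 6.16 and 12.61 on the LIM1215 arrays and 4.01, 3.36 and 3.73 on the SW48 arrays, where LIM1215 replicate 3 stood far above its partners. It was called lower than in both lines when that array was left out and not when it was kept. BST2, the virus-tethering protein tetherin, was the higher gene at 8.90, 8.89 and 8.76 on the Caco2 arrays, against 2.38, 1.94 and 5.27 on the LIM1215 arrays and 2.37, 2.22 and 2.78 on the SW48 arrays.

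Ligands that NK cells read were mixed. Among activating ligands 4 of 20 were higher (20.0%) and 5 lower (25.0%). The lower count was 2 or 3 when any one of the SW48 arrays was left out, without Caco2 replicate 2 or 3 and with the background floor. It was 3 with within-array ranks, with median centring and when median and spread of the deposited values were scaled. The replicate number as a block and the larger p of both comparisons also gave 3. MICA, a ligand of the activating receptor NKG2D, had 7.50, 7.79 and 7.67 on the Caco2 arrays, against 9.62, 9.68 and 9.81 on the LIM1215 arrays and 10.00, 10.17 and 9.90 on the SW48 arrays, whereas MICB, its paralogue, had 10.25, 10.45 and 10.39 on the Caco2 arrays, against 8.63, 8.73 and 8.65 on the LIM1215 arrays and 6.71, 7.08 and 6.99 on the SW48 arrays. Caco2 was lowest for MICA and highest for MICB. ICAM1, an adhesion ligand of leukocyte integrins, had 12.73, 12.78 and 12.40 on the Caco2 arrays, against 9.65, 9.68 and 9.93 on the LIM1215 arrays and 5.37, 4.83 and 5.30 on the SW48 arrays. Probe sets of MICA and MICB can cross-react.

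Among inhibitory ligands 2 of 15 were higher (13.3%) and 5 lower (33.3%). Without Caco2 replicate 1 or 2, 1 was higher and 3 were lower, without LIM1215 replicate 1 or 2, 1 was higher, and with the background floor 1 was higher and 1 lower. CD47, the signal that tells macrophages not to engulf a cell, had 5.55, 5.17 and 4.99 on the Caco2 arrays, against 13.33, 13.38 and 12.85 on the LIM1215 arrays and 10.36, 9.97 and 9.44 on the SW48 arrays, with log2 differences of -7.95 from LIM1215 and -4.69 from SW48 (SE 0.25 each, limma adjusted p = 1.86e-09 and 8.93e-08), and was at least 39-fold below LIM1215 and at least 4.06-fold below SW48. HLA-G, a class I molecule that inhibits NK cells, had log2 differences of -4.08 and -2.15. HLA-E, the ligand of the inhibitory receptor NKG2A, had 11.20, 11.19 and 11.14 on the Caco2 arrays, against 12.49, 12.42 and 14.17 on the LIM1215 arrays and 12.38, 12.25 and 12.02 on the SW48 arrays, and its call was lost under 10 of the other settings. CD274, the checkpoint ligand PD-L1, was called lower but near background in all lines.

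Of 13 cholesterol synthesis genes, 0 were higher and 0 lower than in both lines in the limma test, against 2 higher and 0 lower at an unadjusted p under 0.05 in both. They were lower than in LIM1215 for 7 and higher than in SW48 for 11, with median log2 differences of -0.40 and 1.94. HMGCS1, an early enzyme of the pathway, had 13.79, 13.58 and 13.76 in Caco2, 14.04, 14.09 and 14.18 in LIM1215 and 9.29, 9.19 and 9.33 in SW48. Without LIM1215 replicate 3, 2 were higher than in both. Leaving out Caco2 replicate 3, within-array ranks and the background floor each gave 1 higher. When median and spread of the deposited values were scaled, 4 were higher. Median centring, quantile normalization without controls, a fit of all 27 arrays, a filter on dim genes and a variance trend each gave 2 higher. Of 19 cancer-testis antigens 1 was higher (5.26%), and all 19 were near background in all lines. Without SW48 replicate 3, 2 were lower, and with the background floor 0 were called.

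Mismatch repair genes were above background in all lines for 7 of 7. EXO1, a repair exonuclease, was called against both lines, at 10.38, 10.41 and 10.36 on the Caco2 arrays, against 13.05, 13.10 and 12.36 on the LIM1215 arrays and 11.99, 12.00 and 12.24 on the SW48 arrays. The log2 differences from LIM1215 and SW48 were 0.22 and 0.84 for MSH6 and 1.04 and -0.73 for MSH3, subunits of mismatch recognition complexes, 0.65 and -2.06 for PMS2, a repair endonuclease subunit, 1.23 and 0.22 for PMS1 and 1.87 and -0.23 for MLH3, relatives of PMS2, and -0.46 and 0.03 for PCNA, the sliding clamp. Of 23 replication and mitosis genes 3 were higher (13.0%) and 5 lower (21.7%). Without LIM1215 replicate 3, 11 were lower, and when any one of the Caco2 or SW48 arrays was left out, 3 were. Without Caco2 replicate 1 or 2, 1 was higher, and with the background floor 2 were lower. CDC20, an activator of the anaphase-promoting complex, had 11.50, 11.50 and 11.47 in Caco2, 14.64, 14.63 and 13.79 in LIM1215 and 12.07, 12.13 and 12.07 in SW48, with that array below its partners.

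HOX genes, which record position along the body axis, were higher for 4 of 19 (21.1%) and lower for 6 (31.6%). With the background floor 1 was higher and 1 lower. Within-array ranks left 1 higher, and without SW48 replicate 3 or Caco2 replicate 3, 2 were higher. The lower ones included 5 of the HOXB cluster. HOXB13, of the same cluster, was among the higher ones and lost its call in 9 settings. HOXB9 had 7.24, 6.18 and 5.53 on the Caco2 arrays, against 9.67, 9.65 and 11.30 on the LIM1215 arrays and 14.41, 14.52 and 14.40 on the SW48 arrays, and HOXB6 had 4.18, 4.44 and 3.11 on the Caco2 arrays, against 7.78, 8.34 and 10.37 on the LIM1215 arrays and 9.70, 10.24 and 10.13 on the SW48 arrays. HOXC8 was the higher member above background, at 9.81, 9.56 and 9.55 on the Caco2 arrays, against 3.06, 3.32 and 3.78 on the LIM1215 arrays and 4.29, 4.31 and 4.78 on the SW48 arrays.

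Called genes were unevenly spread over the chromosomes, which the choice of genes did not use. On chromosome 20, 170 of 498 genes were higher in Caco2 than in both lines (34.1%) and 37 lower (7.43%). Chromosome 10 had 27.8% higher and 9.56% lower, and chromosome 5 had 23.1% and 10.7%. On chromosome 18, 33 of 250 genes were higher (13.2%) and 69 lower (27.6%), and on chromosome 9 9.31% were higher and 25.1% lower. Among genes above background in at least 1 line, chromosome 20 had 55.6% higher of 268 and chromosome 18 had 42.1% lower of 152. Chromosome 20 had the largest share of higher genes and chromosome 18 the largest share of lower genes in all 23 settings, the reported one included.

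The uneven spread continued within chromosomes when genes were put in RefSeq order from the short-arm end and divided into 4 blocks of about equal gene number. On chromosome 18 the first block, from USP14 to POTEC, had 17 of 63 genes higher and 0 lower. The other blocks, from ROCK1 on, had 37.1%, 39.7% and 33.9% lower. On chromosome 20 the first block had 20.0% higher and the others 35.5%, 40.8% and 40.3%. On chromosome 10 the shares higher were 40%, 34.1%, 16.5% and 20.6%. On chromosome 11 they were 12.1%, 10.4%, 23.2% and 28.9%. The end genes of a block are given as landmarks whatever their values. Neighbouring genes are not independent of each other, and these shares carry no test.

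**Figure D5:**
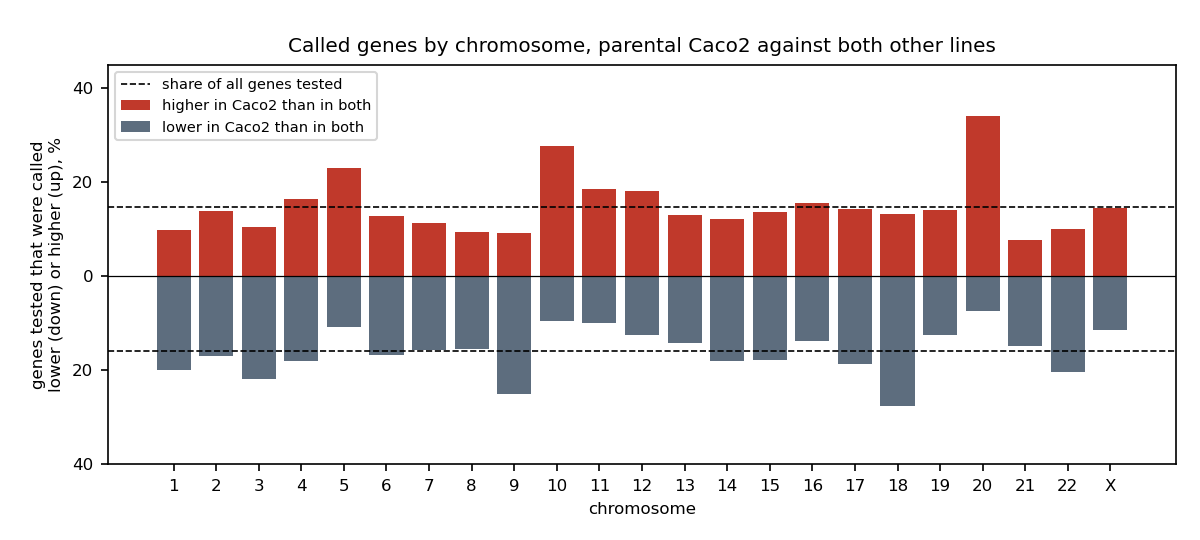
Percentage of the genes tested on each chromosome that were called higher (bars up) or lower (bars down) in parental Caco2 than in both other lines. Dashed lines mark the shares among all genes, 14.8% and 15.9%. Chromosome 20 reaches 34.1% higher and chromosome 18 reaches 27.6% lower.

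The same comparison was made in resistant and in withdrawal cells, on arrays the parental comparison does not use but of the same 3 lines. In resistant cells 3081 genes were higher in Caco2 than in both (17.4%) and 3235 lower (18.3%). In withdrawal cells 3018 were higher (17.1%) and 3285 lower (18.6%). Of the 2616 parental higher genes, 2030 were also higher among resistant cells (77.6%, or 65.9% of the resistant list) and 2230 among withdrawal cells (85.2%, or 73.9% of the withdrawal list). Of the 2810 lower genes, 2078 recurred among resistant cells (74.0%, or 64.2% of that list) and 2290 among withdrawal cells (81.5%, or 69.7%). Opposite calls numbered 5 and 14 among resistant cells and 0 and 2 among withdrawal cells. All 30 genes named by rank recurred in both states.

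Of the 20 plasma protein genes, 19 were higher in resistant and 18 in withdrawal Caco2 cells, and of the 10 metallothionein list genes 8 were lower in each, with 1 higher in resistant cells. CDKN1A, normalized over all 27 arrays, averaged 9.29 ± 0.46 in resistant Caco2 cells, against 13.66 ± 0.05 in resistant LIM1215 and 14.33 ± 0.09 in resistant SW48 (SD, n = 3 each). In parental cells on that scale it averaged 5.34 ± 0.27 in Caco2, 14.63 ± 0.59 in LIM1215 and 13.51 ± 0.11 in SW48. VCAN kept its direction with log2 differences of 3.00 and 2.89 in resistant cells, against 10.95 and 10.80 in parental cells.

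Counts of interferon genes differed between the states. Of 32 measured, 9 were higher in resistant Caco2 than in both resistant lines and 3 lower, whereas in withdrawal cells 2 were higher and 13 lower. OAS3, an antiviral oligoadenylate synthetase, averaged 12.88 ± 0.05 in resistant Caco2, against 11.46 ± 0.19 in resistant LIM1215 and 11.14 ± 0.30 in resistant SW48 (SD, n = 3 each). In parental cells it averaged 6.04 ± 0.32 in Caco2, 11.10 ± 1.60 in LIM1215 and 10.00 ± 0.22 in SW48. It is 1 of the genes with opposite calls, as is IL22RA1, the interleukin 22 receptor of epithelium, named after its values were seen, with log2 differences of 0.88 and 2.72 in resistant cells, against -5.31 and -2.07 in parental cells. Whether the change of a gene between states differed between lines was not tested here.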

How the data were processed

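The deposited table holds log2 values of probe sets on Affymetrix whole-transcript arrays, made by the authors. The log2 base was inferred from the range of values, and no label or header names the background correction, summarisation or normalization, so these are not stated here. Of 24351 probe sets, 2903 are controls, and 3739 of the 21448 others had no single gene name in the platform annotation. The brightest probe set stood for each of 20 genes with several, leaving 17687 genes. Gene symbols are those of RefSeq.

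The 9 parental arrays, controls included, were quantile-normalized together and fitted with a mean per group in limma 3.58.1 (R 4.3.3), with 6 residual and 3.88 prior degrees of freedom. Tests were two-sided, p-values were adjusted by Benjamini-Hochberg over all genes, and a gene was called against both lines when both adjusted p-values were under 0.05 with 1 sign. A replicate count of 3 per line limits the precision. Resistant and withdrawal arrays were normalized and fitted in the same way on their own.

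Named in each direction are the 15 genes with the largest smaller absolute difference, among those called against both, not overlapping and above background on every array of the higher side; XIST and Y-linked genes were left out. From each of 26 gene lists the text names up to 6 called genes with the largest smaller difference and its first 3 genes, and any of the mismatch repair and intestinal factor lists. The members and lists were chosen with earlier results of these data known. In simulated data with 17687 genes, 100 genes were changed by 1 on the log2 scale and 100 by 2, in Caco2 only. The lines had no other difference, the noise was normal and no normalization was applied. The test recovered 52% of genes changed by 1 and 94% of those changed by 2, with 0 false calls. On the parental arrays 57.6% of genes differed from LIM1215 and 57.0% from SW48, so these rates do not describe that comparison. Alternatives covered the normalization, dim probe sets, the variance model, the replicate number as a block and leaving out each array. Some genes of these lists are not reported here. Tables and figures used Python 3.11.15, pandas 2.3.3 and matplotlib 3.10.9.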

Additional observations from a re-analysis of the deposited data

How the results depend on the processing

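The alternatives were another normalization (within-array ranks, median centring, median and spread scaling, quantile normalization without controls or over 27 arrays), a fit of all 27 arrays, a filter on dim genes, all transcript probe sets, a variance trend, the larger p of both comparisons, and leaving out each array. The larger p bears on the counts against both lines only. Under these alternatives the counts of genes called against each line and against both stayed within 1.5 times the reported ones. Both alternatives that moved a count further were chosen after the data were seen. With values under the highest background limit set to that limit (the background floor), 5868 genes differed from LIM1215 and 5794 from SW48, 1645 were higher than in both and 1419 lower, and 922 and 696 were so by at least 2-fold. With deposited values centred on the negative controls, 1741 were higher and 4708 lower than in both, and 2326 were lower by at least 2-fold. The first of these removes differences under background by construction; for the second the cause was not tested. Leaving out 1 array gave 9236 to 10491 genes against LIM1215, 9166 to 10873 against SW48, 2378 to 2768 higher and 2452 to 3051 lower than in both. Of 240 listed, marker or rank-chosen genes called against both, 137 kept the call in every setting that tested them, all 30 chosen by rank among them, and 103 lost it in at least 1 setting. The background floor lost 91 of the 240 calls and leaving out 1 array lost 5 to 18. The calls of DUSP5 and PLK1 were lost in 14 settings each, that of HLA-E in 10, and those of CDC20 and HOXB13 in 9 each. PLK1 was named after its values were seen.

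With the replicate number as a block, 2574 genes were higher than in both lines and 2747 lower. Whether the replicate numbers pair the samples was not settled by a test. Deviations of arrays with the same number correlated between -0.02 and 0.05, and 6 of 9 arrays correlated best with their own number.

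The number of arrays limits the precision, and 809 of the 2616 higher genes and 563 of the 2810 lower ones were near background in all lines, where no fold is given. Medium and line cannot be told apart, and each line is 1 clone.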

Other observations

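Some markers of other cell types were above background in parental Caco2. CD14, the lipopolysaccharide co-receptor of monocytes, had 8.42, 8.50 and 8.72 on the Caco2 arrays, against 3.02, 2.43 and 2.97 on the LIM1215 arrays and 2.23, 2.04 and 1.62 on the SW48 arrays. CSF1R, the receptor of macrophage growth factor, had 8.24, 7.95 and 8.60 on the Caco2 arrays, against 4.14, 4.57 and 3.64 on the LIM1215 arrays and 3.27, 3.11 and 3.33 on the SW48 arrays. PECAM1, the endothelial adhesion molecule CD31, had 7.96, 8.51 and 7.97 on the Caco2 arrays, against 2.99, 2.81 and 2.85 on the LIM1215 arrays and 2.38, 2.58 and 2.15 on the SW48 arrays. The 3 Caco2 arrays lay above the 6 others for each gene, and every Caco2 value lay within 1 log2 unit of the highest background limit, 8.17. The lowest Caco2 value of CSF1R and 2 of the 3 of PECAM1 were under that limit. The other myeloid markers ITGAM and AIF1 were near background in all lines. The summed log2 value of the 5 myeloid markers was 33.3 to 34.4 in Caco2, 18.6 to 20.3 in LIM1215 and 12.6 to 15.2 in SW48. The part of other cells or of cross-reacting probes in these values was not tested.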
